A study of Mus musculus with 17 samples.

Results

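Induced extraembryonic endoderm stem (iXEN) cells were compared with XEN cells kept in the same medium, embryonic stem cell (ESC) medium. The comparison took the 4 libraries labelled as iXEN cells in ESC medium (numbers 1, 2, 6 and 9) and the 3 labelled as XEN cells in ESC medium (numbers 1, 2 and 7), which makes 7 of the 17 libraries of the series. All of them were mRNA libraries of CD-1 mouse cells taken after 10 passages in ESC medium followed by 5 more in ESC medium, so the groups share strain, medium and passages. The remaining libraries, which serve here as reference only, were 3 of mouse embryonic fibroblasts (MEF) after 3 passages in MEF medium and 7 of iXEN and XEN cells moved to XEN medium for their last 5 passages. The series calls its samples biological replicates, and the labels do not say whether a number stands for a derivation, a clone or a culture. A p-value here thus speaks to the spread among these 7 libraries only. Nor do the labels say from which embryos or which reprogramming vector the cells came.

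XEN cells are self-renewing lines of extraembryonic endoderm, which arises as primitive endoderm in the blastocyst and goes on to form the visceral and parietal linings of the yolk sac. GATA factors and SOX factors hold the lineage in place, PDGF receptor signalling supports it, visceral endoderm takes up and carries nutrients, and parietal endoderm lays down a thick basement membrane. iXEN cells have the same kind of identity but start from fibroblasts, in which the factors Oct4 (gene Pou5f1), Sox2, Klf4 and Myc, together called OSKM, give rise to them beside induced pluripotent cells. The comparison asks how far a cell line reached from fibroblasts differs in its transcripts from lines labelled as XEN.

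Counts in genes came to between 21752277 and 42949297 per iXEN library and between 20071567 and 42349804 per XEN library. Levels are CPM (counts scaled to a common library size), computed over all 17 libraries. The spread between libraries of a group, as edgeR's common biological coefficient of variation, was 0.475 in iXEN and 0.730 in XEN, against 0.178 in MEF. The median Pearson correlation of log2 CPM across genes was 0.928 over the 6 pairs of iXEN libraries and 0.820 over the 3 pairs of XEN libraries. It was 0.853 over the 12 pairs of an iXEN and a XEN library. The low XEN median came with XEN 7, at 0.820 with XEN 1 and 0.752 with XEN 2, while XEN 1 and XEN 2 correlated at 0.890. With iXEN libraries XEN 7 correlated at 0.744 to 0.801, XEN 1 at 0.832 to 0.896 and XEN 2 at 0.905 to 0.923. XEN 1 carried fibroblast transcripts and XEN 7 stood apart in endoderm, keratin and stomach genes, with values given below. The sex transcripts split both groups. Xist, the RNA of the inactive X chromosome, was at 9.53, 1.93, 3.37 and 2239 CPM in iXEN 1, 2, 6 and 9 and at 0.413, 0.537 and 716 CPM in XEN 1, 2 and 7. The Y-linked gene Ddx3y was at 21.9, 144, 25.3 and 0.098 CPM and 39.2, 41.5 and 0 CPM in the same order, high where Xist was low. In XEN medium Ddx3y was at 147, 21.97, 0 and 21.7 CPM in iXEN 1, 2, 6 and 9 and at 0.0245, 71.04 and 0 CPM in XEN 1, 2 and 7. Libraries labelled iXEN 6, iXEN 9 and XEN 1 thus had Ddx3y in one medium and next to none in the other, and those numbers do not track the same sex transcripts across media. For XEN 1 this held for Ddx3y but not for Eif2s3y, another Y-linked gene, at 65.8 CPM in ESC medium and 15.5 CPM in XEN medium. The Ddx3y levels of iXEN 1 and iXEN 2 changed places, from 21.9 and 144 CPM in ESC medium to 147 and 21.97 CPM in XEN medium. Library names below are those of the labels, and every direction rests on them.

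The genes that define the lineage were present at overlapping levels in iXEN and XEN cells, as the plot of endoderm genes by library shows. Gata4, a zinc finger factor of primitive endoderm, was at 859.6, 1112, 1198 and 1113 CPM in iXEN 1, 2, 6 and 9 and at 655, 1483 and 351 CPM in XEN 1, 2 and 7. The iXEN libraries lay within the range of the XEN libraries, and the log2 fold change (positive where iXEN is higher) was 0.35 (95% interval -0.72 to 1.43). Gata6, its partner in specifying primitive endoderm, had 327, 279, 423 and 365 CPM in iXEN and 251, 402 and 152 CPM in XEN, a log2 fold change of 0.36 (-0.46 to 1.18). Sox17, an endoderm factor, was at 99.7, 252, 233 and 163 CPM and 227, 258 and 372 CPM, with XEN 7 highest and iXEN 1 lowest. The intervals of these genes reach beyond a doubling in at least 1 direction, so they bound the differences loosely. MEF held 0.929 to 1.43 CPM of Gata4 and 0.0774 to 0.339 CPM of Sox17.

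Some lineage genes were lowest in XEN 7. Sox7, a SOX factor of primitive endoderm, was at 40.7, 207 and 0.47 CPM in XEN 1, 2 and 7, while the iXEN libraries were at 115 to 136 CPM. Pdgfra, the PDGF receptor that marks primitive endoderm, was at 730.1, 916, 441 and 1089 CPM in iXEN and at 288, 566 and 25.5 CPM in XEN, with a log2 fold change of 1.42 (-0.49 to 3.34) and of 0.89 without XEN 7. Dab2, an endocytic adaptor that endoderm needs for its polarity, had 671, 1029 and 227 CPM in XEN against 929 to 1163 CPM in iXEN. Against its label, then, XEN 7 had Sox7 at the level of MEF (0.387 to 0.56 CPM), although Gata4, Gata6 and Sox17 were present in it.

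One gene of the lineage set the groups apart without overlap. Lrp2, or megalin, the endocytic receptor with which visceral endoderm takes up proteins and vitamins, was at 174, 52.6, 143 and 51.01 CPM in iXEN 1, 2, 6 and 9 and at 9.36, 12.1 and 12.03 CPM in XEN 1, 2 and 7. All iXEN libraries lay above all XEN libraries, by a log2 fold change of 3.21 (SE 0.55), which did not pass the threshold after adjustment (edgeR adjusted p = 0.147). Leaving out XEN 1 or XEN 7 gave 3.11 and 3.29. Cubn, the cubilin that works together with megalin, overlapped widely, at 534, 232, 9.27 and 677 CPM in iXEN and 129.8, 365 and 2.43 CPM in XEN, lowest in iXEN 6 and XEN 7. In all, 13 of 14 XEN core genes could be tested, with a median log2 fold change of 0.36 beside -0.0033 over all genes tested, and Lrp2 was the only one of these whose groups did not overlap. Over all genes tested, 3.77% were higher in every iXEN library than in any XEN library and 6.16% were lower. Without XEN 7 that median was 0.086, and without XEN 2 it was 0.85.

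**Figure D1:**
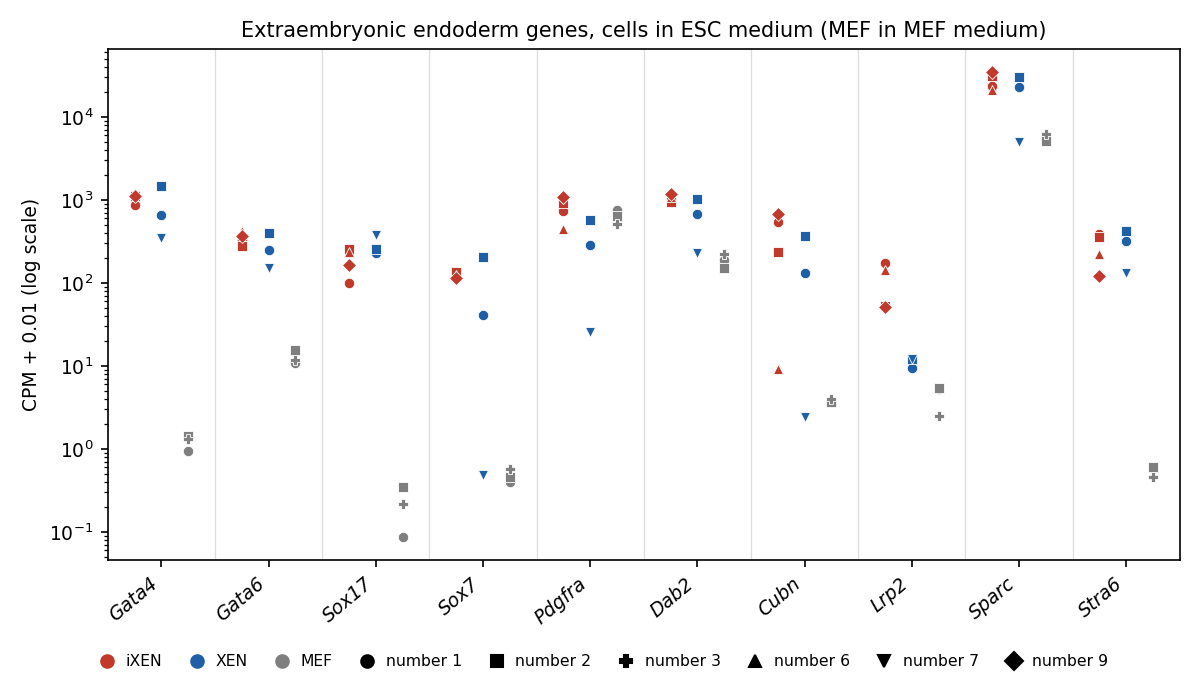
CPM + 0.01 on a log axis for 10 extraembryonic endoderm genes, 1 point per library, with colour for the cell type and marker shape for the label number. iXEN and XEN points overlap for all genes but Lrp2, and XEN 7 lies lowest of the XEN libraries for Gata4, Gata6, Sox7, Pdgfra, Dab2, Cubn, Sparc and Stra6.

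Genes of the visceral and parietal lineages followed the same picture. Of 22 visceral endoderm genes tested, 3 were higher in every iXEN library than in any XEN library and 0 lower, and the list median was 0.36. Leaving out 1 library moved it to between 0.14 (without iXEN 9, and nearly as low without iXEN 2) and 0.91 (without XEN 2), and leaving out iXEN 6 also raised it by over 1.5 times. The 3 were Lrp2, the apolipoprotein gene Apoa2, at 0.504 to 6.48 CPM against 0.13 to 0.459 CPM, and the fibrinogen chain Fgb, at 0.42 to 1.6 CPM against 0 to 0.413 CPM. Among 23 genes of parietal endoderm and basement membrane, 0 were higher and 1 was lower without overlap. Sparc, the calcium-binding matrix protein that is abundant in parietal endoderm, reached 21138 to 34198 CPM in iXEN and 5034 to 30183 CPM in XEN. The exception was Vim, the intermediate filament vimentin of mesenchymal cells and parietal endoderm, at 184, 382, 361 and 289 CPM in iXEN 1, 2, 6 and 9 and at 1679, 939.7 and 1732 CPM in XEN 1, 2 and 7. Every XEN library held more vimentin transcript than every iXEN library, with a log2 fold change of -2.29 (SE 0.38, adjusted p in edgeR = 0.147), and MEF held 3363 to 5377 CPM.

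Across the 12944 genes that passed the filter on low counts, edgeR's quasi-likelihood test called 0 genes at a Benjamini-Hochberg adjusted p under 0.05 (0% of those tested). The smallest adjusted p was 0.0618, and 1770 genes had an unadjusted p under 0.05. Other tools run on the same genes made calls. DESeq2 called 58 genes higher in iXEN (0.448% of those tested) and 336 lower (2.60%). With a quality weight for each library, limma voom called 841 higher (6.50%) and 868 lower (6.71%). Its weights were 2.66, 0.426 and 0.241 for XEN 1, 2 and 7, so XEN 1 stood for most of the XEN group in the voom calls. The count from edgeR also turned on single XEN libraries. It was 49 without XEN 2 (1 higher and 48 lower) and 35 without XEN 7 (2 higher and 33 lower), while it stayed at 0 without XEN 1 or without any 1 of the iXEN libraries. By a plain count of non-overlap, 488 genes were higher in all 4 iXEN libraries than in all 3 XEN libraries (3.77% of those tested) and 797 were lower (6.16%). The counts of list members given in this text are to be read against those shares.

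The 10 genes with the smallest adjusted p, none of them called, were mostly genes at low levels in iXEN. Of the 10, 9 were lower in every iXEN library than in any XEN library and 1, Xlr5a, was higher. Ccnd1, cyclin D1, which drives cells from G1 into S phase in response to growth signals, was at 3.91, 1.86, 4.7 and 1.89 CPM in iXEN 1, 2, 6 and 9 and at 72.6, 79.6 and 216 CPM in XEN 1, 2 and 7. The iXEN libraries lay far below both the XEN libraries and MEF (141 to 229 CPM), with a log2 fold change of -5.35 (SE 0.59, adjusted p in edgeR = 0.0618). S100a4, a calcium-binding protein of motile fibroblasts, was at 0.924, 0.0929, 0.461 and 0.359 CPM in iXEN and 46.9, 30.7 and 45.97 CPM in XEN, the 3 XEN libraries close together and MEF at 478 to 836 CPM. Its log2 fold change was -6.54 (SE 0.73, adjusted p in edgeR = 0.0618).

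Pkp1, the desmosomal plaque protein plakophilin 1, was the gene with the smallest p. It was at 0, 0.0929, 0.0461 and 0.0327 CPM in iXEN and at 13.4, 7.34 and 12.5 CPM in XEN, a log2 fold change of -7.81 (SE 0.83, adjusted p in edgeR = 0.0618). MEF held only 0.151 to 0.324 CPM, so Pkp1 was the 1 gene among the 9 that was not high in MEF. In iXEN it lay near or under the level of 3 counts (0.0697 to 0.138 CPM), so the size of its log2 fold change is loosely set. Slit3, a secreted guidance cue, was at 0.294, 0.0697, 0.277 and 0.294 CPM in iXEN and 57.6, 12.3 and 17.2 CPM in XEN, with XEN 1 highest. Prkcdbp, a cavin protein of the caveolar coat also named Cavin3, was at 0.21, 0.186, 0.0461 and 0.098 CPM in iXEN and 24.6, 4.84 and 26.4 CPM in XEN. These were again low in every iXEN library, while XEN 2 held the least of the XEN libraries. Both had the edgeR adjusted p of Pkp1, 0.0618, at log2 fold changes of -7.01 and -7.09. Without XEN 1, the log2 fold changes of these first 5 genes lay between -7.65 and -5.61, each at an edgeR adjusted p of 0.265. Without XEN 7 they lay between -7.69 and -4.64, and all 5 were called (edgeR adjusted p between 0.0257 and 0.0322), as 35 of 13256 genes were in that fit. The 5 were picked by their p in these same libraries, so their calls are no separate support.

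The other 4 genes lower in iXEN came with adjusted p values between 0.0764 and 0.0896 in edgeR. Ahr, the aryl hydrocarbon receptor that senses planar aromatic compounds, was at 0.0327 to 0.0929 CPM in iXEN and 5.78, 2.69 and 15.7 CPM in XEN 1, 2 and 7. Igfbp3, a secreted carrier of insulin-like growth factors, was at 0.261 to 0.553 CPM against 25.2, 5.15 and 22.2 CPM. Atoh8, a basic helix-loop-helix factor, had 0.0232 to 0.0461 CPM against 5.96, 0.94 and 9.52 CPM. Col4a5, a collagen IV chain of basement membranes, had 0.63, 0.558, 0.231 and 0.392 CPM in iXEN and 8.72, 5.69 and 7.98 CPM in XEN, while MEF held 111 to 143 CPM. For these 4 genes the XEN libraries lay between iXEN and MEF. Ahr and Atoh8 lay near or under the level of 3 counts in iXEN (0.0697 to 0.138 CPM), so the size of their difference is loosely set.

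The gene in the other direction was Xlr5a, an X-linked gene of a lymphoid and germ cell family. It was at 8.15, 6.69, 8.49 and 3.17 CPM in iXEN 1, 2, 6 and 9 and had 0 counts in all 3 XEN libraries. Against a floor of 3 counts over the XEN group it was at least 176-fold higher in iXEN (edgeR adjusted p = 0.0835), a bound that covers counting error only. Xlr5a has near-identical copies on the X chromosome, and how reads shared by copies were counted is uncertain. The related Xlr3b lay at 2.91 to 4.05 CPM in iXEN and 0 to 1.33 CPM in XEN, also without overlap.

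**Figure D2:**
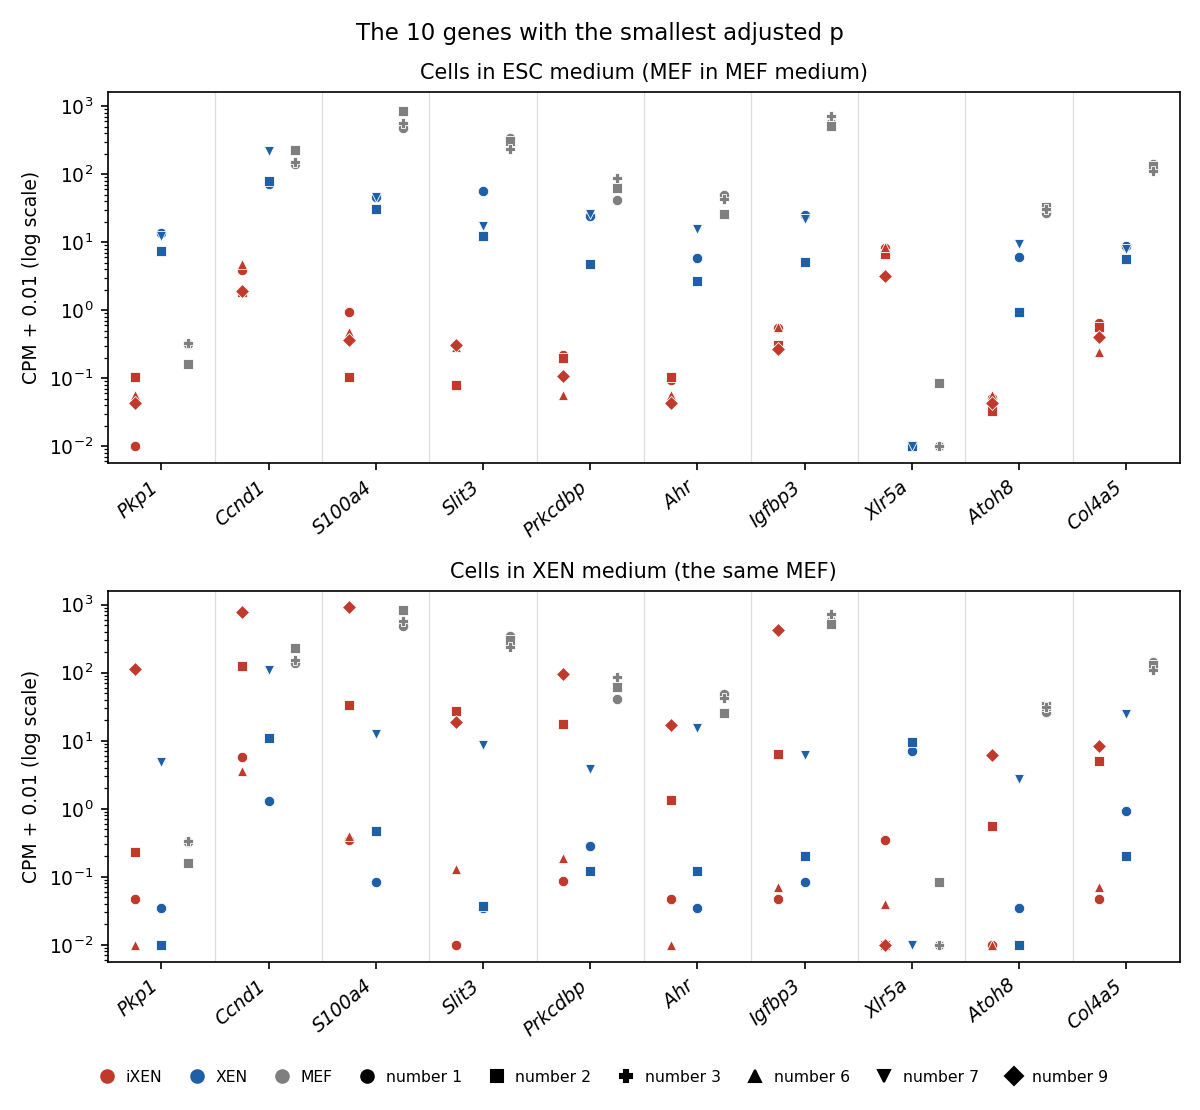
CPM + 0.01 on a log axis for the 10 genes with the smallest adjusted p, in ESC medium (upper panel) and in XEN medium (lower panel), 1 point per library and the same MEF libraries in both. In ESC medium the iXEN points lie below the XEN points for 9 genes and above them for Xlr5a. In XEN medium the cell types overlap for each of the 10 genes.

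In XEN medium the same 10 genes did not set the cell types apart. Ccnd1 was at 5.85, 125, 3.64 and 794 CPM in iXEN 1, 2, 6 and 9 and at 1.3, 11.1 and 111 CPM in XEN 1, 2 and 7, and Xlr5a was at 0.342, 0, 0.0301 and 0 CPM and 7.15, 9.49 and 0 CPM. There iXEN 9 held more than XEN 1 and XEN 2 of each of the 9 genes that had been low in iXEN cells in ESC medium, and XEN 1 held little of them. For Xlr5a it was XEN 1 and XEN 2 that carried the transcript. Of the 488 genes higher in all iXEN libraries in ESC medium, 3 were also higher in all iXEN libraries in XEN medium, where 260 of the 12944 genes were (2.01%), and 21 were lower in all iXEN libraries there, as 310 genes were (2.39%). Of the 797 lower ones, 5 were also lower in XEN medium, beside 2.39% of all genes tested, and 20 were higher, beside 2.01%. In both directions more genes thus separated the cell types the opposite way than the same way. The 20 lay near the share over all genes, and the 3 and the 5 lay below theirs, so no reversal is read from these counts. Chosen here after their values were seen, the 3 higher in both media were Hal, which breaks down histidine, the polycystin relative Pkd1l3 and the pseudogene Rdh18-ps. The 5 lower in both were 1110032A03Rik, Cab39l, Chmp2b of the membrane-scission ESCRT complex, the death receptor adaptor Fadd and the proteasome assembly factor Psmd10. Non-overlap does not mean a large difference, as 1110032A03Rik had a log2 fold change of only -0.32 (SE 0.33) in ESC medium. Whether the difference between cell types itself differed between media was tested as an interaction in edgeR over these 14 libraries, which called 0 of 14357 genes after adjustment (2131 had an unadjusted p under 0.05). That fit took the libraries as independent, although the same label numbers occur in both media.

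Fibroblast transcripts were the list furthest from 0. All 22 tested members had negative log2 fold changes, with a median of -5.25. DESeq2 called 11 of the 22 lower and 0 higher, beside 2.60% lower and 0.448% higher over all genes tested, and edgeR called 0. Only S100a4 and the mesenchymal factor Twist1 were lower without overlap, which is 2 of 22. For most members XEN 7 held as little as iXEN cells or less, as the map of fibroblast transcripts shows. Col1a1, the main chain of collagen I, was at 7.77, 5.44, 4.94 and 6.3 CPM in iXEN 1, 2, 6 and 9, at 2403, 137 and 0.287 CPM in XEN 1, 2 and 7 and at 12929.7 to 17288 CPM in MEF. Its log2 fold change of -7.16 (SE 2.0) became -3.48 without XEN 1.

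Col1a2, Postn and Thy1 had the same order of XEN libraries. Col1a2, the partner chain, was at 2898, 130.5 and 0.626 CPM in XEN 1, 2 and 7, and Postn, the matrix protein periostin, at 489, 0.806 and 0.0261 CPM, against 5.49 to 8.52 CPM and 0.277 to 1.14 CPM in iXEN. Thy1, the surface glycoprotein by which fibroblasts are sorted, was at 216, 0.313 and 0 CPM in XEN and 0.186 to 0.378 CPM in iXEN, so it was high in XEN 1 only and failed the filter for testing. Summed over the 32 genes of the list, transcripts came to 139.8, 193, 284 and 95.9 CPM in iXEN 1, 2, 6 and 9, to 10388, 827 and 126 CPM in XEN 1, 2 and 7 and to 58238 to 77339.8 CPM in MEF. The list median was -2.31 without XEN 1 and -5.48 without XEN 7. In such bulk libraries a smaller share of cells of a type and less RNA per cell cannot be told apart, and the labels do not say whether feeder cells were used. The genes with the smallest adjusted p apart from Pkp1 and Xlr5a were MEF genes as well, and the part of fibroblast RNA in their difference was not tested. XEN 7 held 216 CPM of Ccnd1 and 45.97 CPM of S100a4 at 0.287 CPM of Col1a1.

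**Figure D3:**
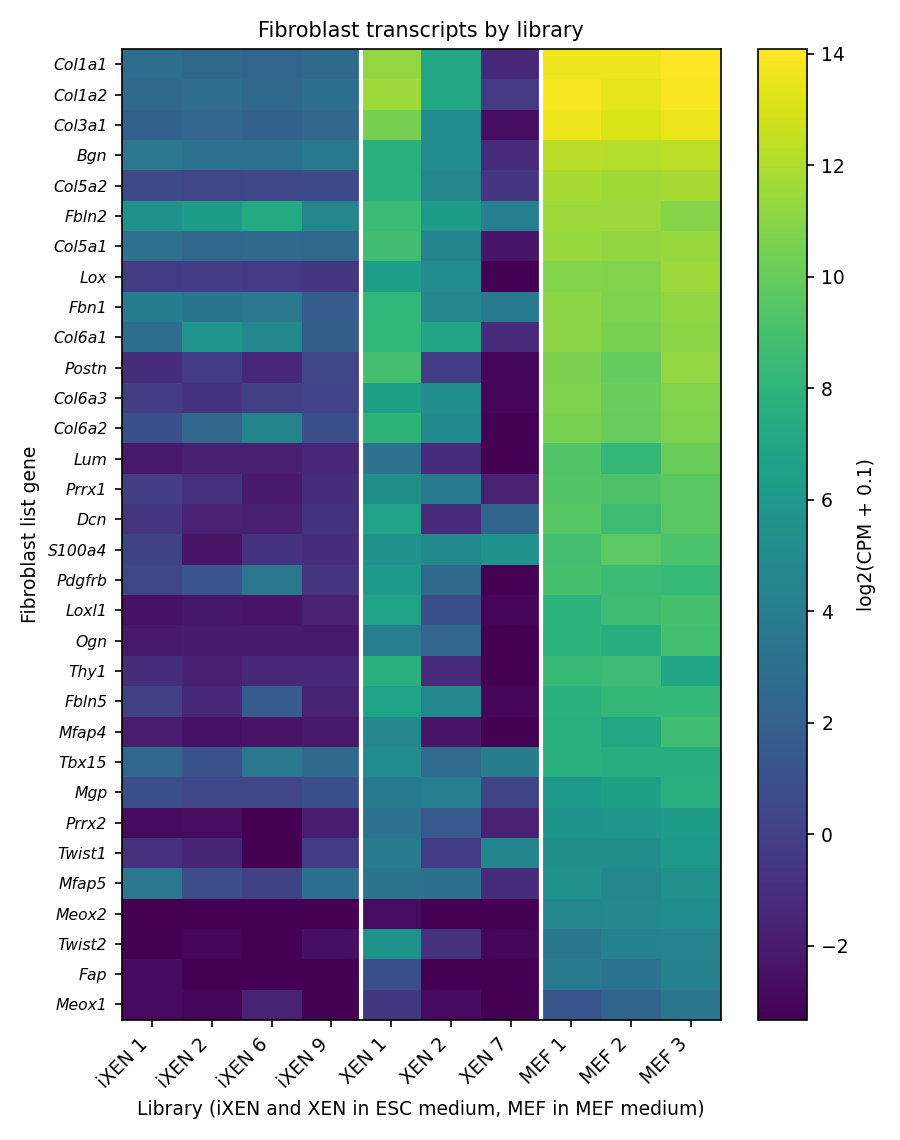
log2(CPM + 0.1) of the fibroblast list genes with values, 1 row per gene ordered by the MEF mean and 1 column per library. MEF are high throughout, XEN 1 is next, XEN 2 is intermediate for part of the rows, and XEN 7 and the iXEN libraries are low for most rows.

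The smooth muscle median changed sign without XEN 1. Of 8 tested, 0 separated the groups, and the median of -0.55 became 2.03 without that library and -2.32 without iXEN 1. Actg2, the smooth muscle gamma actin, was at 176 CPM in XEN 1 and at most 1.3 CPM in the other 6 libraries.

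Several epithelial, stomach and endothelial genes were highest in XEN 7. Krt19, a keratin of simple epithelia, was at 28.4, 2.96 and 1911 CPM in XEN 1, 2 and 7 and at 14.4, 13.8, 181 and 77.7 CPM in iXEN 1, 2, 6 and 9. Cdh1, E-cadherin, was at 2.52, 0.0895 and 214 CPM and 10.1, 14.7, 17.2 and 3.72 CPM in the same order. Of 22 epithelial and junction genes tested, 2 were higher without overlap in iXEN and 0 lower. The median was -0.66, and 1.32 without XEN 7. The 2 genes were St14, the membrane protease matriptase, at 18.4, 3.65, 12.8 and 1.96 CPM against 0.367, 0.0448 and 0.574 CPM, and Grhl2, a factor that switches on epithelial junction genes, at 1.09, 1.25, 0.646 and 0.816 CPM against 0.138, 0.134 and 0.0522 CPM. Their log2 fold changes were 4.72 and 3.11, with edgeR adjusted p values of 0.289 and 0.226, and DESeq2 called both.

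Among genes of the stomach lining, Gkn2, a gastrokine secreted by gastric surface cells, was abundant in both groups, at 774, 1613, 564 and 579 CPM in iXEN and 1353, 297 and 7464 CPM in XEN, and near 1 CPM in MEF (1.24 to 1.32 CPM). The gastric tight junction gene Cldn18 was at 0.0918, 0 and 391 CPM in XEN 1, 2 and 7 and 4.2, 3.6, 0 and 1.44 CPM in iXEN, so that XEN 7 alone carried it at a high level. The list median over 9 genes was -1.84, and 0.57 without XEN 7. Of the endothelial genes, Vwf, the von Willebrand factor that vessels release, was at 19.4, 6.4 and 624 CPM in XEN and 17.4, 55.3, 17.7 and 10.7 CPM in iXEN. Pecam1, an adhesion molecule of vessel walls, was at 91.9 CPM in XEN 7 and at most 0.395 CPM in the other 6 libraries. Cdh5, the cadherin of vessel walls, went the other way and without overlap, at 251, 362, 205 and 143 CPM in iXEN and 129.6, 140.0 and 100.5 CPM in XEN, with a log2 fold change of 0.93 (edgeR adjusted p = 0.345). Eng, a TGF-beta co-receptor, was lower in all iXEN libraries, at 0.0327 to 0.139 CPM against 1.12 to 2.52 CPM. Macrophage markers summed to 11.5, 8.13, 30.03 and 14.7 CPM in iXEN and 12.8, 20.7 and 23.6 CPM in XEN, below the 104 to 327 CPM of MEF.

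Of the reprogramming factors, Pou5f1 and Sox2 were higher in XEN 1 and 2 than in any iXEN library. Sox2 was at 7.25, 3.04 and 0 CPM in XEN 1, 2 and 7 and at 0.0232 to 0.0461 CPM in iXEN. It failed the filter in the 7 libraries, and without XEN 7 its log2 fold change was -7.07 (edgeR adjusted p = 0.0257). That fit leaves out the XEN library in which Sox2 was as low as in iXEN. Its adjusted p thus follows from that choice and does not speak for the XEN group. In iXEN Sox2 lay under the level of 3 counts (0.0697 to 0.138 CPM), so the size of that log2 fold change is loosely set. Pou5f1 was at 8.99, 2.82 and 0.157 CPM in XEN and 0.798, 0.906, 1.11 and 0.392 CPM in iXEN, a log2 fold change of -2.34 (-4.78 to 0.09). Klf4 was abundant in both, at 302, 533, 425 and 223 CPM in iXEN and 264, 191 and 119.7 CPM in XEN, and Myc lay at 14.3 to 47.6 CPM and 31.5 to 46.6 CPM. Counts per gene do not tell a transgene from the cell's own gene. Nanog, a core factor of pluripotent cells, stayed at 0.348 to 0.653 CPM in iXEN and 0.224 to 2.43 CPM in XEN.

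Of the 26 genes of the pluripotency list, which includes Pou5f1 and Klf4, 13 could be tested, with a median log2 fold change of 0.54 (0.91 without XEN 2). Sall4, a zinc finger factor that pluripotent cells share with XEN cells, was higher in all iXEN libraries, at 169, 167, 199 and 171 CPM against 71.7, 159 and 74.1 CPM, though iXEN 2 and XEN 2 nearly met. Zfp42, also named Rex1, was at 20.03, 25.6, 1.94 and 11.7 CPM and 11.1, 1.34 and 0.496 CPM and overlapped. Trophoblast genes summed to 62.1, 41.3, 68.2 and 95.5 CPM in iXEN and 38.1, 51.3 and 30.3 CPM in XEN, and among 6 tested, Gata3 was higher without overlap, at 3.92 to 17.4 CPM against 0.73 to 3.39 CPM.

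Signalling genes gave a mixed picture. In the FGF-ERK list, 1 of 17 tested genes was lower without overlap, and 1, the feedback inhibitor Spry4, was higher. The lower one was Fgfr1, an FGF receptor of mesenchyme, at 1.3, 0.372, 0.922 and 1.37 CPM in iXEN 1, 2, 6 and 9 and 92.3, 4.21 and 30.5 CPM in XEN 1, 2 and 7. Its log2 fold change was -5.47 (SE 1.0, adjusted p in edgeR = 0.157), and MEF held 242 to 316 CPM. Dusp6, an ERK phosphatase that rises with ERK activity, was at 12.2, 12.6, 17.7 and 3.04 CPM and 14.2, 3.58 and 95.6 CPM, highest in XEN 7.

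Of 10 BMP and Nodal genes tested, 3 were lower without overlap and 0 higher, and the median was 0.011. That median turned negative without XEN 1, XEN 7, iXEN 2 or iXEN 6, and leaving out 1 library gave -0.95 (without iXEN 6) to 0.16 (without iXEN 1). The ligand Bmp4 was at 0.168, 0.116, 0.461 and 0.098 CPM in iXEN and 2.8, 3.36 and 2.9 CPM in XEN, a log2 fold change of -3.87 (SE 0.69, adjusted p in edgeR = 0.157). The BMP target Id3 was at 2.98, 5.78, 1.75 and 0.98 CPM against 28.2, 6.58 and 163 CPM, and the inhibitory SMAD gene Smad6 at 0.336, 2.14, 0.60 and 0.457 CPM against 2.84, 2.19 and 37.02 CPM. Id3 and Smad6 were highest in XEN 7, and iXEN 2 and XEN 2 lay close together. Id1, a further target, overlapped, at 2.27, 21.95, 9.41 and 9.47 CPM and 21.5, 10.2 and 353 CPM.

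In the retinoid list, 2 of 16 tested genes were lower without overlap and 0 higher. The list median was -0.84 (-0.39 without XEN 1 and -0.49 without XEN 7). Crabp1, a binding protein for retinoic acid, was 1 of the 2, at 0.139 to 0.252 CPM in iXEN and 22.3, 2.06 and 0.60 CPM in XEN 1, 2 and 7. It was highest in XEN 1, and MEF held 187 to 221 CPM. Stra6, the receptor through which cells take up retinol, was at 383, 360.2, 222 and 120.2 CPM in iXEN and 320.2, 426 and 130.1 CPM in XEN, and the groups overlapped. Of 11 genes of the LIF and STAT3 list, 1 was lower without overlap, the AP-1 member Junb, at 8.94, 25.3, 49.2 and 12.2 CPM against 80.3, 51.4 and 50.6 CPM. In the WNT list 0 of 10 separated the groups.

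Beside cyclin D1, both CDK inhibitor genes of the Cdkn2 locus were lower in each iXEN library than in any XEN library. Cdkn2a, the locus of the p16 and p19ARF tumour suppressors, was at 7.35, 18.8, 17.9 and 7.84 CPM in iXEN 1, 2, 6 and 9 and at 271, 39.6 and 94.7 CPM in XEN 1, 2 and 7. All iXEN libraries lay below all XEN libraries and below every MEF library (22.2 to 39.7 CPM), by a log2 fold change of -3.42 (SE 0.69, adjusted p in edgeR = 0.20, DESeq2 adjusted p = 0.000107). Its neighbour Cdkn2b, p15, was at 3.11, 5.18, 4.24 and 3.3 CPM and 26.98, 5.73 and 25.5 CPM, where XEN 2 came within reach of iXEN 2. Of the 16 genes of the p53 and CDK inhibitor list, 4 were lower without overlap and 1 was higher. The 4 were Cdkn2a, Cdkn2b, the death effector Bax and the p53 target Phlda3, and the 1 was Trp53inp1. Of 26 cell cycle genes, 3 were lower (Ccnb2, E2f1 and Tyms) and 0 higher, with a median of 0.12, which was -0.037 without XEN 1, 0.20 without XEN 2 and 0.30 without XEN 7. Top2a, the topoisomerase of dividing cells, was at 551, 425, 275 and 384 CPM and 152, 391 and 399.8 CPM.

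Metabolic, stress and interferon genes were spread widely within the groups. Of 20 cholesterol genes, 3 enzymes of the pathway (Mvk, Pmvk and Acat2) were lower without overlap, and the median was -0.36 (-0.15 without XEN 1 and -0.21 without XEN 7). Of 19 genes of hypoxia and glycolysis, the glycolytic genes Pfkp and Pgam1 were lower. Pfkp, the platelet type of phosphofructokinase, was at 2.14, 0.883, 5.26 and 0.98 CPM against 9.31, 9.0 and 10.02 CPM. In the integrated stress response, 0 of 16 separated the groups. Atf4, its central factor, was at 184, 273, 839.6 and 214 CPM in iXEN and 591, 269.9 and 218 CPM in XEN, highest in iXEN 6 and XEN 1. Of 20 interferon genes 0 separated the groups, and the median of -1.29 was 0.36 without XEN 1 and -0.72 without XEN 7. Isg15, a ubiquitin-like protein made on interferon signals, was at 51.1, 0.448 and 1.12 CPM in XEN and 0.336 to 0.83 CPM in iXEN, so XEN 1 alone was high.

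Imprinted genes, which are expressed from 1 parental allele, varied from library to library in both groups. Igf2, the fetal growth factor, was at 5.5, 30.1, 2.95 and 4.18 CPM in iXEN and 4.95, 3.22 and 0.0261 CPM in XEN, and its neighbour H19, a noncoding RNA of the same domain, at 28.4, 64.7, 17.8 and 222 CPM and 34.4, 12.9 and 29.97 CPM. Both overlapped between groups and were far under MEF (8266 to 10074 CPM of Igf2). Of 27 tested imprinted genes, 1 was higher without overlap, Zim1, at 0.369 to 8.33 CPM against 0.0522 to 0.269 CPM, and 1 was lower, Ndn. The log2 fold change of Zim1 was 4.47 (edgeR adjusted p = 0.323).

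In the germline list, 3 of 12 genes were higher without overlap, all of them Xlr genes (Xlr3a, Xlr3b and Xlr5a), and 1 was lower, Trap1a, an X-linked antigen gene that MEF hardly express (0.232 to 0.339 CPM). Trap1a was at 203, 215, 212 and 253 CPM in iXEN and 322, 345 and 393 CPM in XEN, a small gap (log2 fold change -0.71, SE 0.23). Of 13 tested Hox genes, the patterning factors of the body axis, Hoxa5 and Hoxa9 were lower in all iXEN libraries. Hoxa9 was at 0.0461 to 0.232 CPM against 4.77, 1.03 and 3.91 CPM, and MEF held 13.1 to 22.4 CPM. Among 11 genes of DNA methylation, 1, Mbd3, was lower without overlap. Dnmt1, the maintenance methyltransferase, was at 312, 278, 117 and 271 CPM and 115, 246 and 76.3 CPM, and Tet1, which oxidises 5-methylcytosine, at 45.7, 47.6, 4.24 and 51.6 CPM and 5.69, 49.3 and 0.60 CPM, with iXEN 6 below XEN 1.

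**Figure D4:**
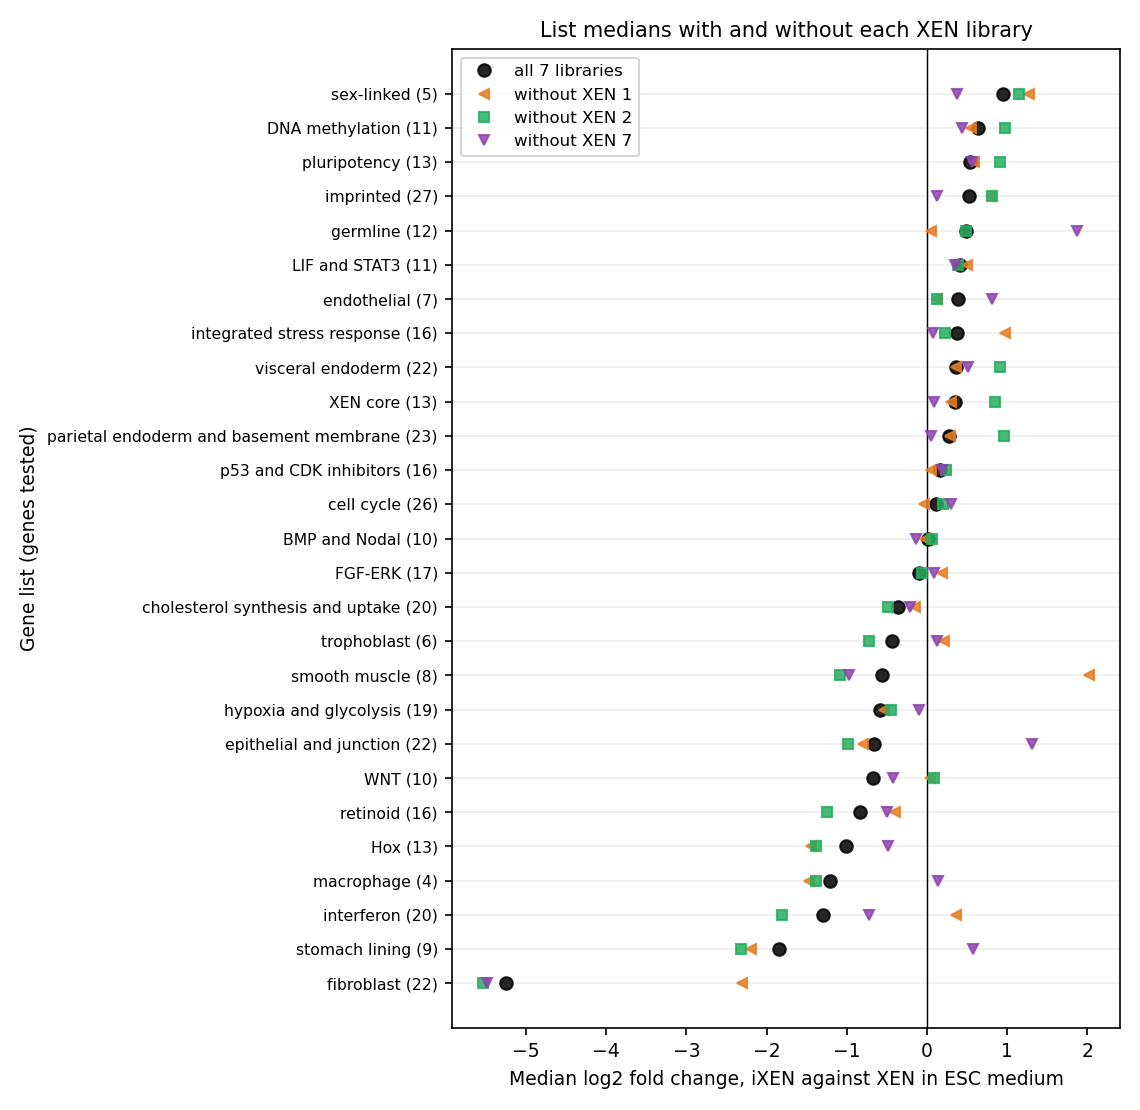
Median log2 fold change of each gene list with at least 4 tested genes, from all 7 libraries (black) and without XEN 1, XEN 2 or XEN 7, with the number of tested genes in brackets. The fibroblast median is the furthest from 0. Leaving out XEN 1 turns the smooth muscle and interferon medians, among others, positive, and leaving out XEN 7 does so for the epithelial, stomach and macrophage medians, among others.

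The widest ranges within a group, in log2 CPM, mark what the libraries of a group do not share. In XEN they belonged to Col3a1 (13.7), Col1a1 (12.8), Cldn18 (12.6), Postn (12.4) and Enpep (12.1), a membrane peptidase at 186, 728 and 0.104 CPM in XEN 1, 2 and 7. Col3a1, Col1a1 and Postn are fibroblast matrix genes that were high in XEN 1, Cldn18 was high in XEN 7, and Enpep was nearly absent from XEN 7. In iXEN the widest were the sex transcripts Eif2s3y (11.05), Xist (10.1), Ddx3y (9.81) and Uty (8.55) and the gene Gm8615 (8.45). The last was at 60.5, 74.8, 0.231 and 102 CPM in iXEN 1, 2, 6 and 9, nearly absent from iXEN 6.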

How the data were processed

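Whole-number counts of reads per gene were deposited for 17 libraries, and the authors used HTSeq 0.6.1 for counting. The submitters' processing notes name that version and FastQC 0.11.3, Trimmomatic 0.32, TopHat2 2.0.12 and the genome build mm9. RNA was extracted with Trizol and libraries were made with a TruSeq mRNA kit, per the labels' protocols. The strand setting, the annotation and the treatment of reads shared by gene copies stand in no source used here, so antisense, overlapping and near-identical genes are uncertain. The counter's summary lines were left out. The files list 24015 genes.

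From these counts, edgeR 4.0.16 in R 4.3.3 compared iXEN with XEN libraries in ESC medium. Genes were kept by filterByExpr (minimum count 10, minimum total 15), TMM gave the scaling, and the two-sided quasi-likelihood test was adjusted by Benjamini-Hochberg at 0.05. SE is the log2 fold change over the square root of F, and 95% intervals use the fit's total degrees of freedom. CPM use TMM factors over all 17 libraries, and log2 CPM have a prior count of 2. Depth sets how low a level can be read: 3 counts are 0.0697 to 0.138 CPM in the 7 libraries, for counting error only. Alternatives were RLE scaling, no filter, DESeq2 1.42.0, limma 3.58.1 voom with quality weights, a robust fit, all 17 libraries in the fit, the libraries in XEN medium, both media summed per number, the label number as a block, leaving out each library, and, chosen after seeing the data, a filter of at least 1 CPM in 3 libraries. The interaction with medium was also added after seeing the data. The fit was tested on simulated data with the same spread in both groups, unlike the libraries here (0.475 in iXEN and 0.730 in XEN). That simulation thus cannot say what the absence of calls means here.

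The comparison and the 30 gene lists (539 symbols, of which 538 were found) were chosen with earlier results of these data known. No gene was called, so genes were named by rule as the 10 with the smallest adjusted p, the 2 largest changes and the highest level of each list, a fixed set of lineage, reprogramming, sex and fibroblast genes, and the 5 widest ranges in each group. Members without overlap, and Cdh1, Pecam1 and Bmp4, were added after their values were seen. Pairs of libraries were compared by a chi-square statistic per degree of freedom, which was 121 to 1408, so no pair agreed within sampling noise. Some results are not reported here.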

Additional observations from a re-analysis of the deposited data

Results flagged for a closer look

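Among the 4 iXEN libraries, 1 library lay far from the other 3 (beyond Dixon's 95% critical value) for 14 of 96 named genes with at least 1 CPM in 1 of them. Chance flags about 1 in 20 such groups of normally distributed values, but CPM were tested here without taking logs. Some genes, Xist and Uty among them, were named for their wide range in these same libraries. The genes are also not independent of each other, so 14 of 96 cannot be set against that rate. The 3 XEN libraries are too few for this test.

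In iXEN 6, the stress factor Atf4 was at 839.6 CPM against 184 to 273 CPM in the other 3 libraries, and its partner Atf3 at 246 CPM against 18.4 to 53.5 CPM. The immediate early gene Fos was at 341 CPM there against 42.6 to 60.4 CPM, the interferon factor Irf7 at 7.20 CPM against 0.294 to 0.767 CPM, keratin Krt18 at 842 CPM against 161 to 269 CPM, and the smooth muscle protein Smtn at 247 CPM against 62.1 to 82.5 CPM. Pkd1l3 was at 1.15 CPM against 0.653 to 0.697 CPM. Tet1 was the 1 of these that was low in iXEN 6, at 4.24 CPM against 45.7 to 51.6 CPM.

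In iXEN 2, Igf2 was at 30.1 CPM against 2.95 to 5.50 CPM in the other 3, Vwf at 55.3 CPM against 10.7 to 17.7 CPM, Smad6 at 2.14 CPM against 0.336 to 0.60 CPM, and the Y-linked Uty at 35.2 CPM against 0.0327 to 5.95 CPM. In iXEN 1, the p53 target Ccng1 was at 805 CPM against 284 to 314 CPM. In iXEN 9, Xist was at 2239 CPM against 1.93 to 9.53 CPM.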

How the results depend on the processing

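The count of genes called by edgeR was 0 in the fit as reported, under RLE scaling, in the robust fit, with all 17 libraries in the fit, for the libraries in XEN medium (544 of 13263 genes at an unadjusted p under 0.05), for both media summed per number (317 of 14343), and under the added filter of at least 1 CPM in 3 libraries. It was 5 without a filter on low counts (0 higher, 5 lower), 394 in DESeq2 (58 and 336) and 1709 in limma voom with quality weights (841 and 868). Leaving out 1 library gave 0 to 49 genes, 0 to 2 of them higher and 0 to 48 lower. The count was 49 without XEN 2, 35 without XEN 7 and 0 without any other 1. The causes were not tested. Of 115 named genes that could be tested, DESeq2 called 23 and voom 32, all in the direction reported. Over all 12944 genes these tools called 394 and 1709. Many genes were named for their change or p in these same libraries, so their calls are no separate support. In voom, XEN 1 carried most of the weight of the XEN group. In XEN medium 62 of 107 named genes and 22 of 30 list medians had the other sign, with 0 genes called there. Leaving out XEN 7 changed the sign of 17 of 115 named genes and of 6 list medians, leaving out XEN 1 that of 7 genes and 8 medians, and leaving out XEN 2 that of 2 genes and 2 medians. Leaving out 1 iXEN library did so for 2 to 6 genes and 1 to 5 medians. Signs changed for 29 genes and 15 medians with both media summed. With the replicate block, which rests on numbers 1 and 2, they changed for 22 genes and 8 medians. They changed for 10 genes and 7 medians in voom, and for 0 genes and 1 median under the added filter. With RLE scaling, DESeq2, the robust fit, all 17 libraries or no filter, 0 genes and 0 medians changed sign.

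The numbers 1 and 2 occur in both groups. Deviations from the group means of same-numbered libraries correlated at -0.14 and -0.0076 across genes. Libraries with different numbers correlated at -0.26 to 0.29, so these values cannot decide whether same-numbered libraries share more than a number. With that number as a replicate block, 9 genes were called (2 higher, 7 lower). Numbers 6, 7 and 9 occur in 1 group only, so that fit compared iXEN 1 and 2 with XEN 1 and 2 alone.

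Depth limits levels near 3 counts, which came to 0.0697 to 0.138 CPM in the 7 libraries. Depth was no limit for Gata4, at 351 CPM or more in each library, whose interval still ran from -0.72 to 1.43.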

Other observations

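Across genes, the library most like XEN 1 in ESC medium was not another XEN library but iXEN 2 in XEN medium (Pearson correlation of log2 CPM 0.930, beside 0.847 with XEN 1 in XEN medium). XEN 2 in ESC medium was most like iXEN 9 in ESC medium (0.923), and XEN 7 was most like XEN 7 in XEN medium (0.939). Of the iXEN libraries, iXEN 6 was most like its own number in the other medium (0.922), while iXEN 9 in ESC medium correlated at 0.776 with the library labelled iXEN 9 in XEN medium and at 0.954 with iXEN 2 in ESC medium. These correlations are over 12944 genes and are a description of single pairs of libraries. Pou5f1 and Sox2 reached 58.4 and 48.2 CPM in the library labelled iXEN 9 in XEN medium, the highest of the 14 iXEN and XEN libraries.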
